A study of Mus musculus with 6 samples.

Results

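Genes for 7 subunits or partners of Polycomb repressive complex 2 (Ezh1, Ezh2, Eed, Suz12, Jarid2, Mtf2 and Phf19) and for 2 Polycomb readers (Cbx2 and Cbx7) were compared between extraembryonic endoderm (XEN) and embryonic stem (ES) cells of the mouse. They were taken by symbol, and all 9 were found among 17710 genes listed in any of the 6 libraries. The XEN cells, a self-renewing culture of the primitive endoderm lineage, were of strain ICR and grew in RPMI1640 with 15% FBS, Glut and BME. The ES cells, which stand for the pluripotent epiblast, came from strain 129/Ola and grew on 0.1% gelatin in N2B27-2iLIF, a serum-free medium with 2 kinase inhibitors and LIF. Both were feeder-free, kept under normal conditions, and gave 3 libraries of total RNA each, A to C. The labels do not say how many cell lines or separate cultures these came from. The p-values set the difference between groups against the spread of these libraries, which may be technical. They do not speak for other lines or cultures. The groups differ at once in cell type, strain and medium, and in expression of the Y-linked Uty (1 count over the XEN and 2589 over the ES libraries), and the parts of these cannot be told apart.

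Polycomb repressive complex 2 (PRC2) methylates a lysine of histone H3 at silenced developmental genes. Its core joins one of the alternative methyltransferases EZH1 and EZH2 with EED, which binds the methylated tail, and SUZ12, the scaffold. The core takes up either a Polycomb-like protein (MTF2, PHF1 or PHF19) or JARID2 with AEBP2, and these partners help it find its sites, which in vertebrates are mostly CpG islands. The mark is read by the chromodomain of a CBX protein in canonical Polycomb repressive complex 1 (PRC1), and CBX7 is known as the main such reader of mouse ES cells.

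Promoters are shown for Ezh2, which was higher in XEN cells, and for Mtf2, Cbx7 and Phf19, the members with the steepest fall. Each is the 250 bases before the RefSeq gene start (build GRCm38.p6), 5′ to 3′ on the gene's strand, with CG dinucleotides in capitals. They lie at chr6:47595031-47595280 on the minus strand (Ezh2), chr5:108065424-108065673 on the plus strand (the first of the RefSeq starts of Mtf2), chr15:79932647-79932896 on the minus strand (Cbx7) and chr2:34913977-34914226 on the minus strand (Phf19).
Ezh2: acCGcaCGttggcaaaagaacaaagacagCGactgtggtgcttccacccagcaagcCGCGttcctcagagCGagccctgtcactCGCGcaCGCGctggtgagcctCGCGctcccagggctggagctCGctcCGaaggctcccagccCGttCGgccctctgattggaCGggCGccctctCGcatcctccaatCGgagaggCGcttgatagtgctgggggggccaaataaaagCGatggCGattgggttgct
Mtf2: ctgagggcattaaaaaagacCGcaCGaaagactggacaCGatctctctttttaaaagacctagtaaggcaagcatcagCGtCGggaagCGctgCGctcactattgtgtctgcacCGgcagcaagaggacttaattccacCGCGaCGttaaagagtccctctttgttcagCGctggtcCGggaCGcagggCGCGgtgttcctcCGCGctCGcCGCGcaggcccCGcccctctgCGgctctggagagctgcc
Cbx7: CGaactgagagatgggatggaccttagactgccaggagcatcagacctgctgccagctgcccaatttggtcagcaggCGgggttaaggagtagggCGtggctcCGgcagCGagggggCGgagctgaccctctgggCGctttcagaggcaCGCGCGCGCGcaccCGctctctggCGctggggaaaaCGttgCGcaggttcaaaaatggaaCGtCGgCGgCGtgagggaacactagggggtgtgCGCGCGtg
Phf19: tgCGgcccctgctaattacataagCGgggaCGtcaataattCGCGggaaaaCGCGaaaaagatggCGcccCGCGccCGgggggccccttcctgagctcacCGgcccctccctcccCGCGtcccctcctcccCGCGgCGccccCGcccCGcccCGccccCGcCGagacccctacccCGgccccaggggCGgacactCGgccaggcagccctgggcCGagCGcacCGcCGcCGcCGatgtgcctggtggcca

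The promoters of Ezh2, Mtf2 and Cbx7 each held 23 CG dinucleotides and that of Phf19 held 31, against a median of 6 over 32841 RefSeq promoters trimmed in the same way to the 250 bases before the start. RefSeq promoters were matched for 8 of the 9 members, with 10 starts among them. At 9 of these starts there were 12 to 37 CG dinucleotides, while a second start of Mtf2 had 2. The members that fell most and the member that rose thus shared CG-rich promoters, which is a description of the reference sequence and not of these cells. The letters TTTCCCGC, a form of the site of the E2F cell cycle factors, were searched on both strands and were in the Suz12 and Phf19 windows and in 0.90% of all promoters. The form TTTGGCGC, in 0.42% of promoters, was in none of the members' windows.

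Libraries held 20675311 to 22375875 expected counts (estimated reads per gene). Levels are given in FPKM, which is scaled to gene length, and tests were made on the counts with edgeR. The markers matched the labels: 8 XEN markers summed to 1787 to 1992 FPKM in XEN and 12.5 to 14.0 FPKM in ES libraries, and 8 ES markers to 52.7 to 58.9 FPKM in XEN and 4167 to 4316 FPKM in ES libraries. Klf4 made up most of the ES marker sum in XEN libraries, at 51.1 to 57.8 FPKM. The 7 fibroblast or feeder markers summed to 0.17 to 0.26 FPKM in XEN and 1.72 to 2.01 FPKM in ES libraries, with Twist2 at 0 in all 6 and Col3a1 at 0 in ES libraries. The 4 blood markers summed to at most 0.1 FPKM in XEN and 0.69 FPKM in ES libraries, and Ptprc was at 0 throughout. The 6 trophoblast markers summed to 2.45 to 2.87 FPKM in XEN and 28.2 to 29.7 FPKM in ES libraries, mostly from Tfap2c in ES cells, and Hand1 was at 0 throughout. The part of Klf4 or Tfap2c expression in the Polycomb values was not tested.

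Most PRC2 and CBX genes were lower in XEN than in ES cells, and Ezh2 was the exception. In the edgeR quasi-likelihood test, adjusted over 13581 genes, 8 members fell (Cbx7, Mtf2, Phf19, Eed, Jarid2, Cbx2, Suz12 and Ezh1) and Ezh2 rose. Every member passed the filter on low counts, but Phf19 did so only through the ES libraries, where it was higher. It had 45, 69 and 63 counts there and 0, 3 and 3 counts in XEN libraries. A call in itself says little in this comparison: 88.7% of all tested genes were called, 46.7% as lower and 42.0% as higher in XEN cells. Of the members, 6 were called and more than 2-fold lower, as were 25.6% of all tested genes. The median log2 fold change (XEN over ES) was -1.81 over the members and -0.07 over all tested genes. Summed, the members took 621, 609 and 607 CPM (expected counts relative to the library total) in XEN libraries A, B and C, against 1645, 1642 and 1652 CPM in ES libraries. In bulk RNA, fewer cells with a transcript and less transcript per cell cannot be told apart.

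**Figure D1:**
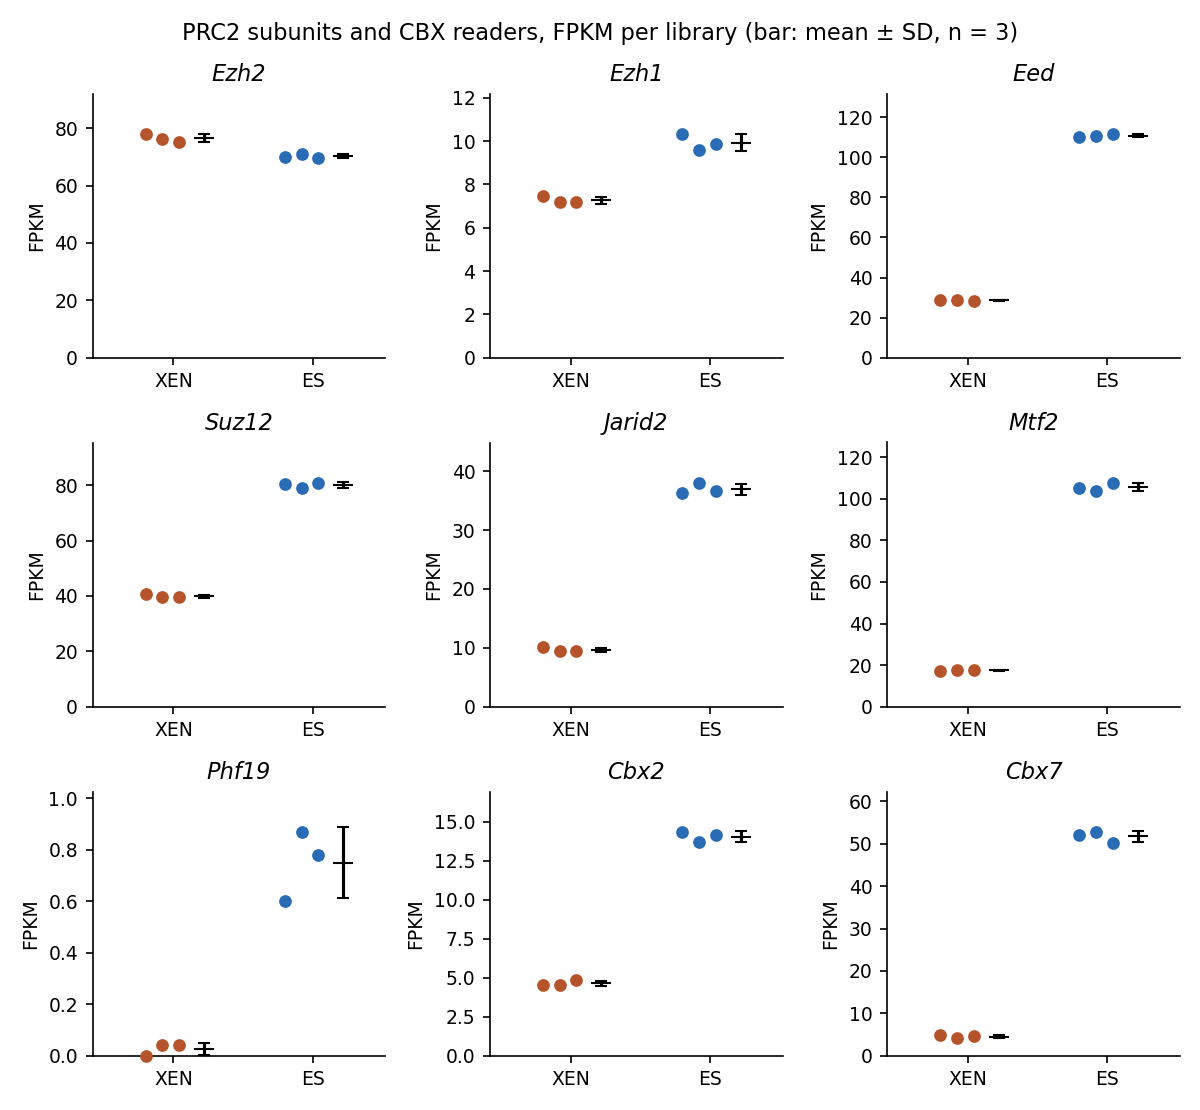
FPKM of each member in each library (y axis, linear from 0, a scale of its own per gene), with XEN libraries left in red and ES libraries right in blue, libraries A to C from left to right, and the mean ± SD beside them. The groups do not overlap for any gene shown, as for 89.7% of all tested genes. Ezh2 is higher in XEN libraries and the other 8 are lower.

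Of the members, the methyltransferase genes changed least. Ezh2, the main catalytic subunit of dividing cells, had 78.0, 76.3 and 75.3 FPKM in XEN libraries, against 70.1, 71.0 and 69.8 FPKM in ES libraries. All XEN libraries lay above all ES libraries, by at least 4.27 FPKM; groups failed to overlap in this way for 89.7% of tested genes. The log2 fold change of Ezh2 was 0.26 ± 0.02 (SE from the spread of log2 CPM; edgeR adjusted p = 1.7e-06). Its size depended on the scaling, with 0.11 under upper-quartile factors (edgeR adjusted p = 0.00838), a scaling that moved the median of all tested genes by -0.15. Relative to that median Ezh2 stood at 0.33 under either scaling, which is fixed by arithmetic, since a scaling shifts Ezh2 and the median alike. With other filters on low counts this distance was 0.287 (mean of at least 1 CPM) and 0.415 (no filter).

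Ezh1, the alternative catalytic subunit, which is better known from cells that no longer divide, had 7.47, 7.17 and 7.17 FPKM in XEN libraries, against 10.3, 9.60 and 9.86 FPKM in ES libraries. It was lower in every XEN library than in any ES library, with a log2 fold change of -0.32 ± 0.04 (SE; edgeR adjusted p = 1.43e-05). Ezh1 was the minor gene of the pair in both cell types: it made up 8.67% ± 0.08 of the summed FPKM of Ezh1 and Ezh2 in XEN cells and 12.4% ± 0.47 in ES cells (SD, n = 3). The sum itself was 83.8 ± 1.56 FPKM in XEN cells and 80.2 ± 0.52 FPKM in ES cells.

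The core members Eed and Suz12 fell. Eed, which binds the trimethylated histone tail and stimulates the enzyme, had 28.5, 29.0 and 28.1 FPKM in XEN libraries, against 110.2, 110.7 and 111.7 FPKM in ES libraries. The lowest ES library exceeded the highest XEN library by 81.2 FPKM, and the log2 fold change was -1.83 ± 0.01 (SE; edgeR adjusted p = 2.36e-20). Suz12, the scaffold on which partners assemble, had 40.6, 39.7 and 39.6 FPKM in XEN libraries, against 80.3, 79.0 and 80.9 FPKM in ES libraries. It fell by 0.87 on the log2 scale (± 0.02, SE; edgeR adjusted p = 2.9e-15), again with no overlap between the groups.

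The core genes stood in different proportions. Ezh2 was at 2.68 ± 0.05 times the FPKM of Eed in XEN cells and 0.63 ± 0.01 times in ES cells (SD, n = 3), and at 1.92 ± 0.01 times that of Suz12 in XEN cells and 0.88 ± 0.02 times in ES cells. Eed over Suz12 was 0.71 ± 0.01 in XEN cells and 1.39 ± 0.02 in ES cells. These 3 ratios were chosen after their values were seen and carry no test. They are ratios within a library, so a scaling factor common to a library does not enter them.

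The genes of RBBP4 and RBBP7, the histone chaperones that complete the core, moved apart. Rbbp7 averaged 535 ± 12.5 FPKM in XEN cells and 211.6 ± 0.83 FPKM in ES cells, a log2 fold change of 1.47 ± 0.02, and Rbbp4 averaged 74.3 ± 0.97 FPKM in XEN cells and 95.8 ± 3.28 FPKM in ES cells, one of -0.24 ± 0.03 (SE; both called by edgeR). Both chaperones also serve in other chromatin complexes.

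Among the partner genes, Mtf2 and Phf19 fell further than any core gene, and Jarid2 fell about as far as Eed. Jarid2, a DNA-binding partner that lost the demethylase activity of its family, had 10.1, 9.46 and 9.44 FPKM in XEN libraries, against 36.3, 38.0 and 36.6 FPKM in ES libraries. Its log2 fold change was -1.81 ± 0.04 (SE; edgeR adjusted p = 8.98e-20), and the nearest libraries of the groups lay 26.2 FPKM apart. Mtf2, the Polycomb-like protein that binds unmethylated CpG DNA, had 17.2, 17.5 and 17.6 FPKM in XEN libraries, against 105.4, 103.7 and 107.7 FPKM in ES libraries. It was second to Eed among the members in ES cells and fell by 2.41 on the log2 scale (± 0.02, SE; edgeR adjusted p = 1.4e-22), with no overlap between the groups.

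The deposited length of Mtf2, the mean over its 7 RefSeq and 5 added transcripts weighted by their use, was 4477, 4484 and 4455 bases in XEN libraries and 4310.3, 4319.8 and 4299.3 bases in ES libraries. The groups did not overlap, so that the mix of Mtf2 transcripts as the authors estimated it differed as well as the total. For Cbx7, with 1 RefSeq and 7 added transcripts, the same length was 2995 ± 9.07 bases in XEN cells and 3036 ± 4.82 bases in ES cells (SD, n = 3). The lengths of Ezh2 (mean 2609 bases in XEN and 2601 bases in ES cells) and Suz12 (4439 and 4444 bases) did not overlap between groups either. Those of Eed and Jarid2 did overlap. How many of all genes have lengths apart in this way was not computed, so such a gap is not particular to Mtf2 or Cbx7. Values per transcript were not used here.

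Phf19, another Polycomb-like protein, was near the limit of detection. It had 0, 3 and 3 counts in XEN libraries, against 45, 69 and 63 counts in ES libraries, which is 0, 0.04 and 0.04 FPKM in XEN libraries and 0.60, 0.87 and 0.78 FPKM in ES libraries. XEN library A did not list it, and it was the lowest member in both cell types. By summed counts relative to library size, the level in ES cells was 30.1 times that in XEN cells, with a 95% exact interval of 13.5 to 83 that covers counting error only. The log2 fold change was -4.69 ± 0.48 (SE; edgeR adjusted p = 6.63e-10), and limma gave -0.77 on the log2(FPKM + 1) scale, where the added 1 exceeds every level of this gene.

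Other partners of PRC2 moved in both directions. Of 6 further accessory genes, 5 passed the filter, of which 3 rose and 2 fell (median log2 fold change 0.82). Over all tested genes 42.0% were called higher and 46.7% lower in XEN cells, so moves in both directions are not particular to these genes. Epop, which links PRC2 to elongin and belongs to its Polycomb-like form, averaged 326 ± 8.01 FPKM in XEN cells and 74.6 ± 3.16 FPKM in ES cells, a log2 fold change of 2.26 ± 0.04. It was above every member in XEN cells. Phf1, the remaining Polycomb-like gene, averaged 6.02 ± 0.12 FPKM in XEN cells and 3.75 ± 0.62 FPKM in ES cells, and Lcor, whose locus also encodes a PRC2 partner, averaged 1.59 ± 0.09 FPKM in XEN cells and 0.57 ± 0.07 FPKM in ES cells. Aebp2, the usual companion of JARID2, fell by 0.15 on the log2 scale, at 10.7 ± 0.22 FPKM in XEN cells and 13.6 ± 0.16 FPKM in ES cells, and Lcorl fell by 0.48. The gene that did not pass, Ezhip, an inhibitor of EZH2, had 0 counts in XEN libraries and 4 counts over the ES libraries.

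By class, Mtf2, Phf1 and Phf19 summed to 23.5 ± 0.37 FPKM in XEN cells and 110.1 ± 1.92 FPKM in ES cells, and Jarid2 with Aebp2 to 20.4 ± 0.54 FPKM in XEN cells and 50.6 ± 1.09 FPKM in ES cells (SD, n = 3). Mtf2 was the larger part of its class in both cell types. Jarid2 exceeded Aebp2 in ES cells and lay slightly below it in XEN cells.

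**Figure D2:**
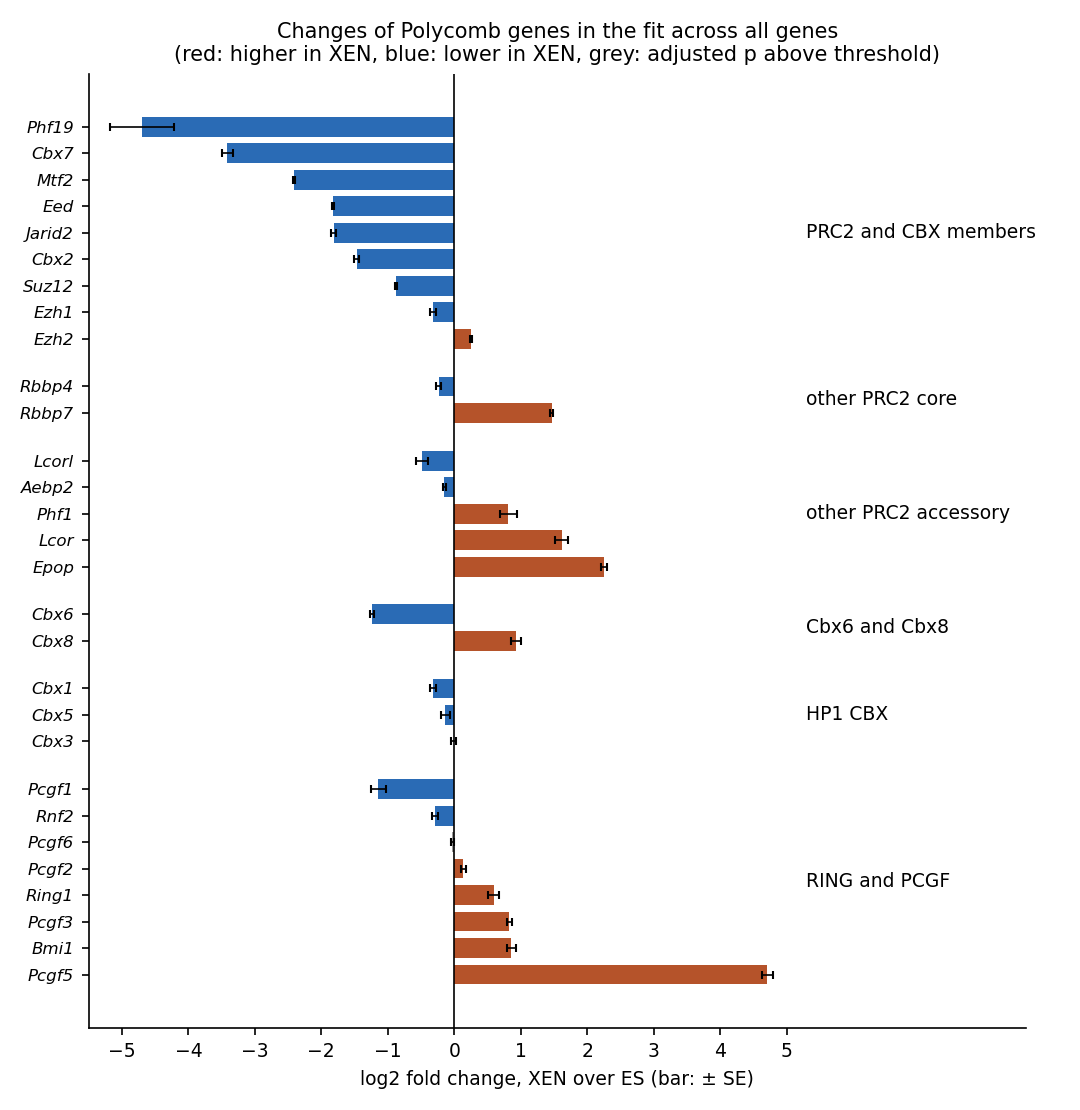
Log2 fold change (x axis, XEN over ES) of the members and of other tested PRC2, CBX, RING and PCGF genes, with SE bars, in red where called higher, in blue where called lower in XEN cells and in grey where not called. Of the 9 members only Ezh2 points right, at 0.26, while Epop (2.26) and Pcgf5 (4.71) are the largest rises shown. The bars come from the spread of log2 CPM, and that of Phf19 may understate its error.

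Both readers fell, with a larger fold for Cbx7 than for Cbx2. Cbx7 had 4.81, 4.06 and 4.62 FPKM in XEN libraries, against 52.2, 52.8 and 50.2 FPKM in ES libraries. Its XEN mean was 0.087 of its ES mean, with a log2 fold change of -3.41 ± 0.08 (SE; edgeR adjusted p = 2.14e-22). Cbx2, the reader best known for compacting chromatin, had 4.56, 4.53 and 4.83 FPKM in XEN libraries, against 14.4, 13.7 and 14.1 FPKM in ES libraries. It fell by 1.47 on the log2 scale (± 0.04, SE; edgeR adjusted p = 5.95e-16). The readers stood apart in ES cells, and in XEN cells their libraries overlapped.

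The related Polycomb readers Cbx6 and Cbx8 differed in direction. Cbx6 fell, with 6.33, 6.06 and 5.99 FPKM in XEN libraries against 16.2, 15.9 and 15.5 FPKM in ES libraries (log2 fold change -1.24 ± 0.03). Cbx8 rose to 4.63 ± 0.10 FPKM in XEN cells, against 2.65 ± 0.22 FPKM in ES cells. Cbx2, Cbx6, Cbx7 and Cbx8 together came to 19.9 ± 0.51 FPKM in XEN cells and 84.3 ± 1.35 FPKM in ES cells (SD, n = 3).

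Their make-up was nearly even in XEN cells and dominated by Cbx7 in ES cells. Of the summed FPKM of these 4 genes, Cbx7 took 23.8%, 21.0% and 22.9% in XEN libraries, against 61.2%, 62.2% and 60.6% in ES libraries. In XEN cells Cbx2 took 23.3% ± 0.71, Cbx6 30.8% ± 0.94 and Cbx8 23.3% ± 0.90. In ES cells Cbx2 took 16.7% ± 0.50, Cbx6 18.8% ± 0.15 and Cbx8 3.15% ± 0.32. These shares were chosen after the values were seen and carry no test. A change in share does not say which gene moved: Cbx2 gained share although its level fell.

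**Figure D3:**
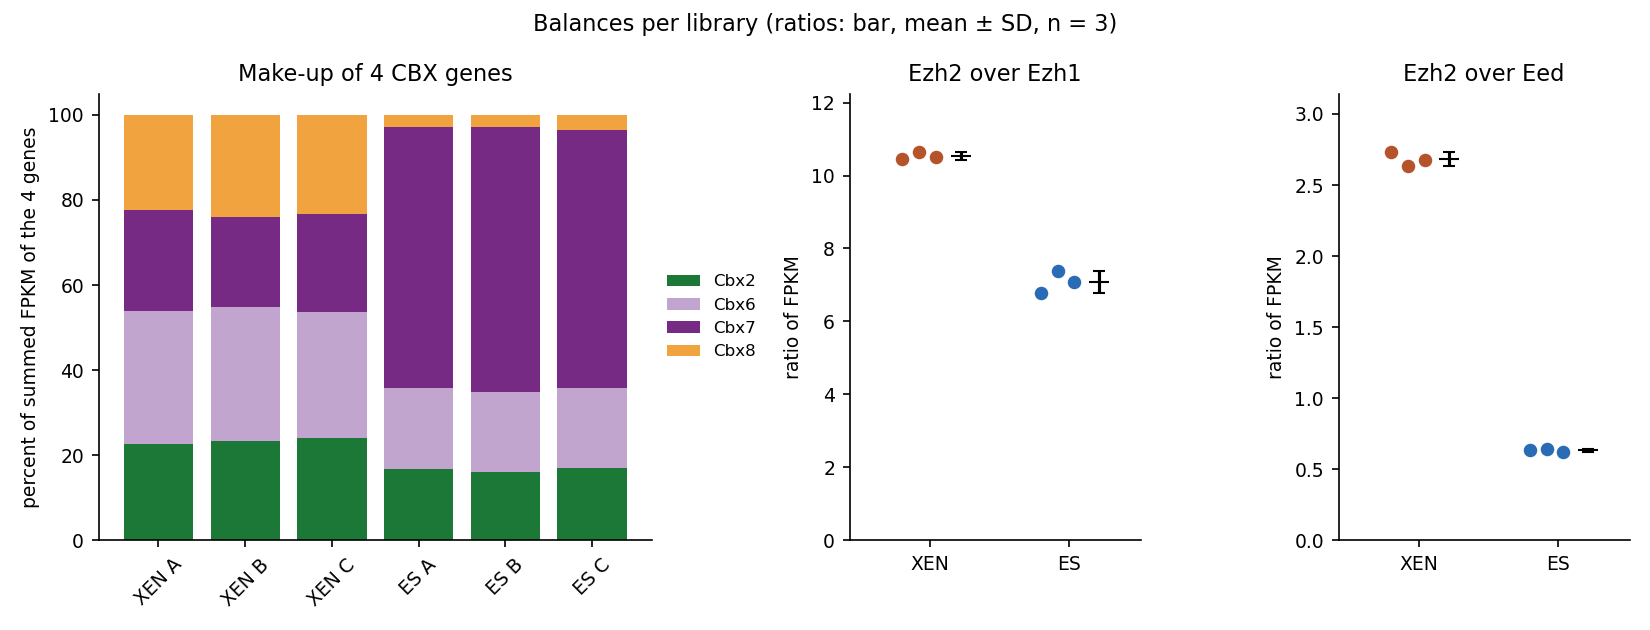
Left, the percent of the summed FPKM of Cbx2, Cbx6, Cbx7 and Cbx8 that each gene takes in each library (stacked bars, y axis from 0). Middle and right, the ratio of Ezh2 to Ezh1 and of Ezh2 to Eed in each library, XEN in red and ES in blue, with mean ± SD. Cbx7 takes 21.0% to 23.8% in XEN and 60.6% to 62.2% in ES libraries.

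Balances between members were tested over the 6 libraries as log2 ratios of FPKM with 0.1 FPKM added. With 3 libraries against 3 the smallest two-sided exact permutation p is 0.1, so no balance could pass 0.05. Ezh1 to Ezh2 was at -3.38 ± 0.01 in XEN cells and -2.81 ± 0.06 in ES cells (SD, n = 3; difference -0.57, exact permutation p = 0.1, 0.125 adjusted over the 5 balances tested), and the libraries did not overlap. Cbx2 to Cbx7 was at 0.05 ± 0.12 in XEN cells and -1.87 ± 0.06 in ES cells, a difference of 1.92 with the same p-values and no overlap. Jarid2 to Mtf2 was at -0.85 ± 0.07 in XEN cells and -1.51 ± 0.06 in ES cells, a difference of 0.67, also at the smallest p. Mtf2 to Phf19 was at 7.13 ± 0.26 in XEN cells and 6.97 ± 0.25 in ES cells (exact permutation p = 0.5, and 0.5 adjusted), with overlapping libraries, but Phf19 lay below the added 0.1 FPKM in XEN cells, so the size of this balance is not measured.

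The order of the members differed between the cell types. In XEN cells it ran Ezh2, Suz12, Eed, Mtf2, Jarid2, Ezh1, Cbx2, Cbx7 and Phf19 by FPKM, and only the neighbours Cbx2 and Cbx7 overlapped between libraries. In ES cells it ran Eed, Mtf2, Suz12, Ezh2, Cbx7, Jarid2, Cbx2, Ezh1 and Phf19, with no overlap between neighbours. Ezh2 came first in XEN cells and behind Eed, Mtf2 and Suz12 in ES cells, while its own mean FPKM in XEN cells was 1.09 times that in ES cells.

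For 4 members the genes of most similar level were taken by the smallest Euclidean distance in log2 CPM over the 6 libraries, among 12796 genes with a symbol outside the lists. Ezh2 was nearest to Ilf2 (distance 0.09), Washc5 (0.11) and Tyro3 (0.14). Ezh1 was nearest to Washc1 (0.12), Wdr37 (0.14) and Cog7 (0.16), and Cbx2 to Stat2 (0.15), Rufy3 (0.18) and Cox6b2 (0.18). Cbx7 had no neighbour as close: Dmtn (0.46), Gm38396 (0.46) and Pdgfa (0.48) came first. With 2 groups, such a distance holds little beyond 1 level in each group.

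The PRC1 catalytic genes and the PCGF subunits, which tell the forms of PRC1 apart, differed in direction. Of 8 RING and PCGF genes 5 rose, 2 fell and 1 did not pass (median log2 fold change 0.37), and 4 rose and 3 fell under upper-quartile factors. Beside these counts, 42.0% of all tested genes were called higher and 46.7% lower in XEN cells. Pcgf5, a subunit of a form without CBX, averaged 83.7 ± 2.67 FPKM in XEN cells and 3.48 ± 0.34 FPKM in ES cells, a log2 fold change of 4.71 ± 0.08. Of the canonical subunits, Bmi1 averaged 22.3 ± 1.78 FPKM in XEN cells and 13.5 ± 0.21 FPKM in ES cells, and Pcgf2, chosen after its values were seen, averaged 41.8 ± 1.13 FPKM in XEN cells and 41.6 ± 1.78 FPKM in ES cells and was called higher in only 12 of 16 settings, with its sign reversed in 1. Rnf2, the main ubiquitin ligase and the most abundant of the 8 by mean FPKM over all 6 libraries though not in XEN cells alone, averaged 42.1 ± 1.49 FPKM in XEN cells and 56.5 ± 2.27 FPKM in ES cells. Pcgf1 fell by 1.14 on the log2 scale and Pcgf3 rose by 0.83 ± 0.04.

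The polyhomeotic gene Phc1, which joins canonical PRC1 units into larger assemblies, fell and averaged 11.7 ± 0.52 FPKM in XEN cells and 66.1 ± 1.07 FPKM in ES cells (log2 fold change -2.39 ± 0.04). Of its list of 8 polyhomeotic and SCM-like genes, 7 were tested, of which 4 rose and 3 fell (median 0.16), and 3 rose under upper-quartile factors. Again, 88.7% of all tested genes were called in either direction. Sfmbt2, an imprinted gene of extraembryonic tissues, rose by 2.92 ± 0.08. The HP1 readers, CBX proteins that bind a different histone mark, changed less than most members. Of 3, Cbx1 fell by 0.32 on the log2 scale, as far as Ezh1, and Cbx5 fell by 0.135 and was called in 14 of 16 settings. Cbx3 did not pass (edgeR adjusted p = 0.916), although it was called lower under upper-quartile factors.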

How the data were processed

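The 6 deposited tables, 1 per library, list genes with the authors' RSEM-style expected counts, FPKM and gene length. The submitters' processing notes name mm9, Bowtie2, RSEM and DESeq2, without versions or roles. Gene models were RefSeq transcripts plus transcripts added by the authors, per the file headers. Genes missing from a table counted as 0.

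Expected counts were rounded to whole numbers; filterByExpr (minimum count 10) kept 13581 genes. Counts were scaled by TMM (factors 0.951 to 1.05) and tested with the edgeR 4.0.16 quasi-likelihood F test (robust, group only, R 4.3.3), with Benjamini-Hochberg adjustment at 0.05. SEs come from log2 CPM with a prior count of 2. Alternatives used limma 3.58.1 and DESeq2 1.42.0. No libraries were alike within sampling noise (chi-square over degrees of freedom at least 2.45). On data simulated for XEN against ES over 13331 genes, edgeR recovered 27 of 50 genes with a 1.2-fold change, 49 of 50 at 1.5-fold and 50 of 50 at 2-fold, with 9 of 13131 unchanged genes called. The changed genes were drawn from those above 5 CPM, with as many rises as falls, and most genes were left unchanged. In the real data 88.7% of tested genes were called and Phf19 averaged 1.35 CPM, so these rates need not hold for this comparison or for Phf19.

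Members and gene lists were chosen with earlier results of these data known. Named were all members; of each other list up to 3 called genes per direction (mean at least 5 CPM) and the most abundant; and the 3 nearest genes for Ezh1, Ezh2, Cbx2 and Cbx7; the text gives a part. Cbx8, under that level, was named for its family. Of the 5 balances tested, 4 are given, and 1 balance and some list genes are not reported here. No p was computed over the members alone.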

Additional observations from a re-analysis of the deposited data

How the results depend on the processing

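Recomputing 20 results under other settings gave 274 values, of which 273 were kept. For the members' fold changes, kept means the same direction and call, and for counts of genes a value within 1.5 times the count given. For balances it means the same sign only, whatever the size or p-value. The settings were other scalings (RLE, upper quartile, none), filters, DESeq2, limma-trend on FPKM and unnamed models left out. Others were a replicate block, other pseudocounts, CPM ratios, and each library left out. The members were called 8 lower and 1 higher in all 15 alternative fits. Ezh2 ranged from 0.11 to 0.27 (adjusted p up to 0.00838) and Ezh1 from -0.47 to -0.29. The one reversal was the balance of Mtf2 to Phf19, at -1.77 with 1 FPKM added, 0.16 with 0.1 FPKM and 2.09 with 0.01 FPKM, because the added value sets the level of Phf19 in XEN cells; without each library it ran from 0.01 to 0.29. Whether the replicate letters pair the libraries is not settled by their deviations from the group means. Same-letter XEN and ES libraries correlated by only 0.01 to 0.03 in these, yet each was highest with its own letter. With the replicate block, calls were 5682 higher and 6318 lower, against 5707 and 6337 without it, and the members' calls were unchanged at 1 and 8. Sign-flip tests of the balances within letters cannot give a p below 0.25. Depth limits Phf19, since 3 counts came to 0.134 to 0.145 CPM.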

Other observations

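Beyond the PRC2 and CBX genes, the antagonists and clients of Polycomb moved in both directions. Of 16 partners of variant PRC1, 9 rose and 7 fell (median log2 fold change 0.32, against -0.07 over all tested genes). The counts of this and the following lists stand beside 42.0% of all tested genes called higher and 46.7% called lower in XEN cells. Yaf2, which takes the place of RYBP, averaged 23.7 ± 0.79 FPKM in XEN cells and 2.55 ± 0.54 FPKM in ES cells (SD, n = 3). Auts2, a partner of the PCGF5 form, had 3 counts over the XEN libraries and 3373 over the ES libraries, in the opposite direction to Pcgf5. Wdr5, which also serves in the MLL complexes, fell by 2.40 on the log2 scale. Of 10 genes of the complex that removes the PRC1 mark, 3 rose and 6 fell (median -0.20); its enzyme Bap1 rose by 0.97 ± 0.02 and Asxl1 fell by 0.67. Of the demethylases that oppose PRC2, Kdm6b rose by 0.55 ± 0.03, Kdm6a fell by 0.58, and the Y-linked Uty had 1 count over the XEN libraries and 2589 over the ES libraries, so that Y-linked expression differs between the groups too and cannot be told apart from strain and cell type.

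Of 12 Trithorax and MLL genes 6 rose and 5 fell (median 0.10), with 4 and 5 under upper-quartile factors and 3 and 5 without ES library B or without XEN library C. The shared subunit genes Ash2l, Dpy30 and Rbbp5 fell by 2.99, 1.70 and 1.04 on the log2 scale (Rbbp5 chosen after its values were seen). Ash2l averaged 18.96 ± 0.08 FPKM in XEN cells and 167.9 ± 0.13 FPKM in ES cells. Among the 6 genes that rose, Setd1b rose by 1.497, Ash1l by 0.661 and Kmt2d by 0.528 on the log2 scale. Setd1b averaged 4.46 FPKM in XEN cells and 1.727 FPKM in ES cells and was called in all 16 settings. Ash1l and Kmt2d were each called in 13 of 16. Of 5 DNA methylation genes 2 rose and 3 fell (median -0.43), with Dnmt3b at 51.9 ± 0.94 FPKM in XEN cells and 12.9 ± 0.16 FPKM in ES cells, and Uhrf1 at 63.2 ± 0.76 FPKM in XEN cells and 212.0 ± 3.51 FPKM in ES cells.

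Of the Hox genes, classical Polycomb targets, most were too low to be tested. Of 39, 13 passed the filter on low counts, which a gene passes when it is high in 1 group, and 9 of these rose and 4 fell; with no filter 12 rose and 9 fell, and at a mean of at least 1 CPM 5 rose and 4 fell. Hoxc12 averaged 0.93 FPKM in XEN cells and 13.6 FPKM in ES cells, a log2 fold change of -3.92 ± 0.23, and Hoxc13 averaged 4.95 ± 0.19 FPKM in XEN cells and 9.85 ± 0.43 FPKM in ES cells. Of 40 other textbook targets 21 passed the filter, with 14 higher and 7 lower in XEN cells (13 and 7 under upper-quartile factors, 15 and 11 with no filter). This list includes genes of XEN identity, such as Gata6 (105 ± 1.94 FPKM in XEN cells, 0.10 ± 0.01 FPKM in ES cells), and was written with their direction known. Those that did not pass, many of them neural or mesodermal regulators such as Pax6, had at most 26 counts over the libraries of either group. Foxd3 had 0 counts in XEN libraries and was at least 301.7-fold lower there, against a floor of 3 counts over the group.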
